A study of Drosophila melanogaster with 12 samples.

Results

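Atf3 and Ets21C encode stress-responsive transcription factors of Drosophila melanogaster, and chromatin accessibility at both genes was followed across 12 ATAC-seq libraries. Atf3 is a basic leucine zipper (bZIP) protein that dimerises with Jun and is known in fly larvae for keeping lipid storage and immune activity in balance. Ets21C carries an ETS DNA-binding domain, is induced downstream of the stress kinase JNK (Jun N-terminal kinase), and is known in the adult fly gut for driving renewal of the epithelium after stress. In ATAC-seq, the transposase Tn5 cuts open DNA and joins sequencing adapters to it, so that the reads at a region report how open it was.

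All flies were adult females of the genotype S106_UASfoxo, in which the S106 driver, known to act in fat body and gut, switches on UAS-foxo when the steroid RU486 is eaten. foxo encodes the forkhead factor that insulin signalling holds back. The 4 groups were control and switched flies, each as fat body and as gut, with 3 libraries per group. Control flies are labelled RU486-. Switched flies are labelled as having eaten RU486 (200 µM) during 21 days, followed by 7 days on control food, so the comparison addresses the state of chromatin after induction of foxo had ended. All flies were reared on 10% yeast and 5% sucrose and mated for 48 h. No group ate RU486 without UAS-foxo, so the drug and the induction cannot be told apart. Nothing in the labels says whether replicates came from separate flies, so p-values measure only the spread between these libraries. In whole dissected tissue, fewer cells of a type and less open chromatin per cell cannot be told apart.

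The members are all deposited regions that overlap the Release 6 span of either gene or lie within 1000 bp of it. These were 6 of 6353 regions, 2 among the 3447 labelled fat body and 4 among the 2906 labelled gut. The genes themselves were selected on earlier results of these data, in which 1 Atf3 region was higher in switched libraries labelled fat body. Values of the members in that contrast are therefore given as a description. Where calls are counted in it, they stand beside the share called over the whole table and support nothing. All 6 regions passed the filter on low counts.

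Total counts ran from 811020 to 1186153 per library labelled fat body and from 99191 to 709659 per library labelled gut. Most counts were mitochondrial (69.2% to 88.6% per library), which left 129657 to 229212 nuclear counts labelled fat body and 22164 to 138767 labelled gut. Both gut libraries numbered 1 stood apart as shallow, with 34316 nuclear counts in the control and 22164 in the switched library. Levels are given below as nuclear CPM, meaning CPM (counts scaled to the library's own total) with mitochondrial DNA left out of that total. By presence of a region, the gut markers went against the tissue labels. Of 15 gut markers, 8 had a region among those labelled fat body and 1 among those labelled gut. Of 12 fat body markers 3 and 6 had one. Over all genes, 828 had a tested region labelled fat body and 1276 labelled gut, so the fat body markers went the way of genes in general. Because of the gut markers, tissues are named only as labelled.

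Atf3 spans X:1242740-1275284 (Dmel_CG11405, 32545 bp) and Ets21C spans 2L:544925-552923 (Dmel_CG2914, 7999 bp) in RefSeq's Release 6 annotation. That annotation was used here as gene spans without strand or exons, so the ends are called lower and upper by coordinate, and exon, intron or UTR is not stated. In the table labelled fat body, Atf3 had a single region of 74 bp deep inside the gene (X:1264354-1264427), 21.7 kb above its lower end and 10.9 kb below its upper end. In the table labelled gut, Atf3 had its regions at the ends instead. A region of 123 bp (X:1242127-1242249) lay 491 bp outside the lower end, and one of 285 bp (X:1274927-1275211) lay inside the upper end. The inner region had no counterpart in the table labelled gut, where the nearest region began 10.5 kb away.

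Ets21C had a region inside its upper end in both tables. The region labelled fat body (2L:552536-552729, 194 bp) lay wholly within the region labelled gut (2L:552446-552759, 314 bp). Such sharing was the lesser case: 411 of 2028 regions on chromosome arms labelled fat body (20.3%) overlapped the other table, as did 399 of 2292 labelled gut (17.4%). The table labelled gut held another region 219 bp outside the lower end of Ets21C (2L:544599-544706, 108 bp). It overlapped the neighbouring gene Spp, which encodes signal peptide peptidase, by 55 bp, so its counts cannot be assigned to Ets21C alone, and it is called the Ets21C/Spp region. The acetylcholine receptor gene nAChRbeta3 lies within the span of Ets21C, and its lower end is 423 bp above the Ets21C/Spp region.

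Both genes thus had regions near both ends in the table labelled gut. Of 7398 protein-coding genes of at least 2000 bp on chromosome arms, 1243 had a region within 1000 bp of an end in that table, and 43 of them (3.46%) had one at both. In the table labelled fat body 397 genes had a region at an end and 9 (2.27%) at both, and neither Atf3 nor Ets21C was among those 9.

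**Figure D1:**
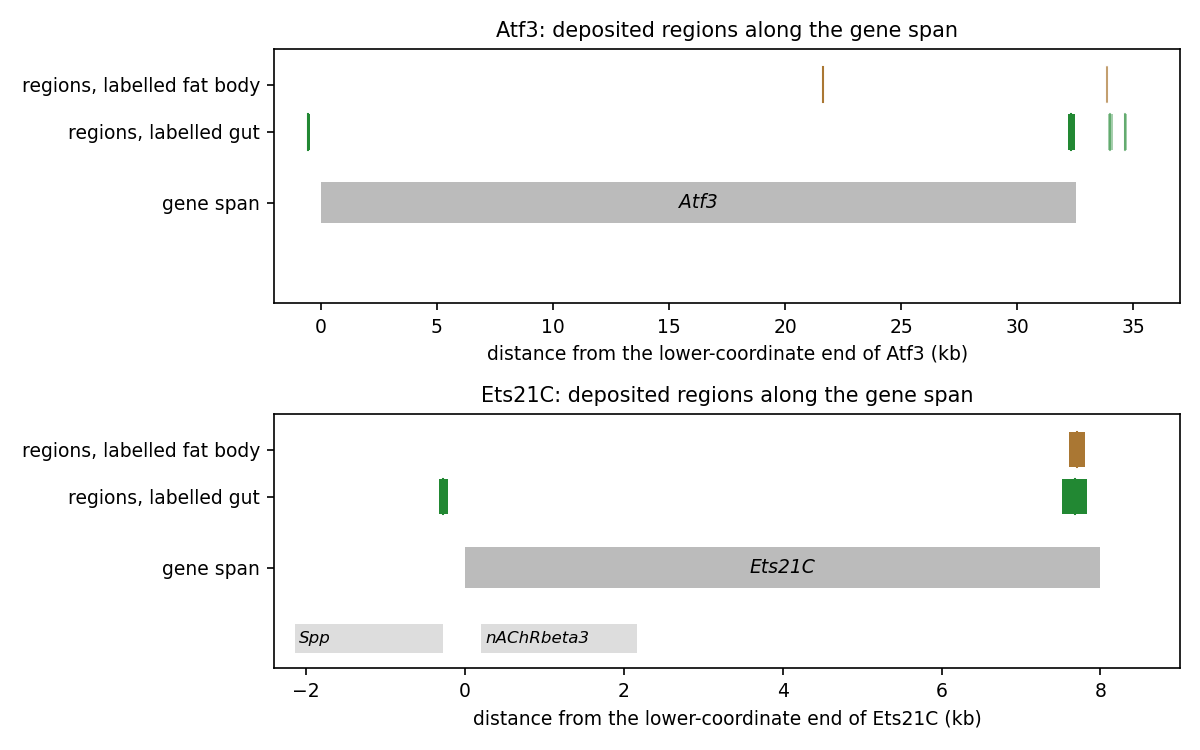
Positions of deposited regions along Atf3 (top) and Ets21C (bottom), in kb from the gene's lower-coordinate end, with regions labelled fat body in brown and labelled gut in green, and paler marks for regions 1000 to 5000 bp outside the span. The single Atf3 region labelled fat body lies inside the gene, the Atf3 regions labelled gut lie at its ends, and the Ets21C upper-end regions of both tables coincide.

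The inner region of Atf3 was read almost only in switched libraries labelled fat body. Control replicates 1 to 3 had 0, 0 and 1 counts there, against 188, 53 and 50 for switched replicates 1 to 3. These are 0, 0 and 6.07 nuclear CPM in control and 820.2, 330.8 and 255.04 nuclear CPM in switched libraries. The groups did not overlap, and switched replicate 1 stood above the other two with 64.4% of all reads of the region. The mean was 2.02 ± 3.51 (SD, n = 3) nuclear CPM in control and 469 ± 307 (SD, n = 3) in switched libraries.

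With a single control read the size of the difference is poorly bounded. The pooled switched share was 214 times the pooled control share, and its exact 95% interval ran from 38.2 to 8493. This interval covers counting error only and leaves out the spread between libraries. Because amplified reads are not independent molecules, it may be too narrow even for counting error. The 2 control libraries at 0 allow up to 21.9 and 23.1 nuclear CPM (3 counts of each total), which is below the lowest switched library. The fitted log2 fold change was 7.48 ± 1.95 (SE, edgeR), a value that depends on the prior count. It stood at 6.71 to 9.34 with each library left out in turn.

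Of the 2 member regions labelled fat body, 0 were among the calls of edgeR's quasi-likelihood test, which called 0% of 1674 tested regions. The inner region of Atf3 was 1 of the regions that DESeq2 called higher in switched libraries, which were 3.22% of 2052 regions with a defined adjusted p. It was also the 1 member in which every switched library lay above every control library, as 9.92% of tested regions did. The gene was selected on this difference, so these calls restate the selection, and the region passed the filter on low counts only through the switched libraries. By log2 fold change from high to low it ranked 37 of 1674.

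For description only, the region's own control total and lowest switched count can be laid over the table. Of 3447 regions labelled fat body, 15 (0.435%) had at most 1 count over the control libraries and at least 50 in every switched library, with a median length of 73 bp. The mirror image, with at most 1 count over the switched libraries and at least 50 in every control library, held for 3 regions. These bounds were taken from the region itself, so the counts say nothing about its rarity. Counts of 0 were common in general: 46.5% of tested regions labelled fat body were at 0 in at least 1 library, and the median length of those was 86 bp against 136 bp for regions read in all libraries. At 74 bp, the inner region of Atf3 was longer than 24.6% of the tested regions labelled fat body, and its mean CPM exceeded that of 36.7%.

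Some other measures moved with the groups in these libraries. The mitochondrial share was 84.4% to 88.6% in control and 75.8% to 83.6% in switched libraries labelled fat body. Haemocyte markers had a region at 3 of 9 genes (Col4a1, eater and srp), with a summed level of 0 to 614 nuclear CPM in control and 637 to 2247 in switched libraries. The defining haemocyte genes Hml, NimC1 and He had none. srp stands in the fat body marker list as well. Taken alone it overlapped between the groups, with 66, 0 and 9 counts for control against 42, 274 and 239 for switched replicates. Muscle markers had a region at 2 of 10 genes (Mef2 and sls), at 461 to 825 nuclear CPM in control and 1130 to 2377 in switched libraries. Mef2 alone overlapped between the groups, with 0, 37 and 50 counts for control against 49, 51 and 138 for switched replicates. The separation of the sum came from sls, with 74, 70 and 26 against 210, 258 and 328 counts. Summed levels of the fat body, gut, neuronal and oenocyte markers overlapped between the groups. Over the whole table, every switched library lay above every control library at 9.92% of tested regions. The part of the mitochondrial, haemocyte and muscle shifts in the Atf3 value was not tested.

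**Figure D2:**
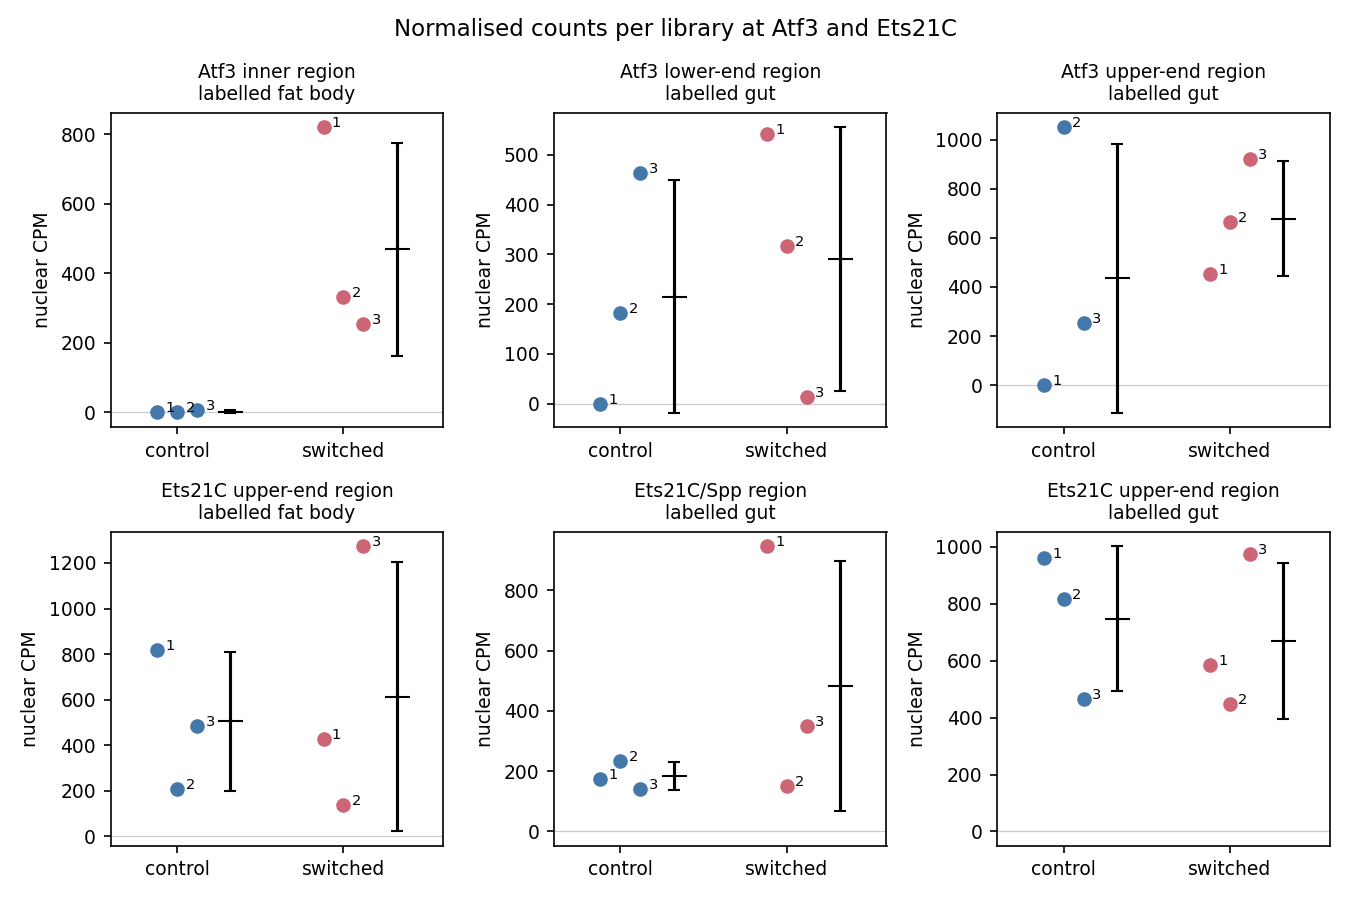
Nuclear CPM of each library at the 6 regions, in control (blue) and switched (red) libraries, with replicate numbers beside the points and the mean ± SD (n = 3) to the right of each group. The inner Atf3 region labelled fat body separates the groups (0 to 6.07 against 255.04 to 820.2 nuclear CPM), and the groups overlap at the other 5 regions.

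At the gene ends labelled gut, Atf3 gave no such separation. At the upper-end region the control replicates had 0, 104 and 29 counts, against 10, 92 and 66 for the switched ones, or 0, 1051 and 254 nuclear CPM against 451, 663 and 921. Control replicate 2 was the highest of all 6 and control replicate 1 the lowest, so the groups overlapped. The means were 435 ± 548 (SD, n = 3) and 678 ± 235 nuclear CPM. The log2 fold change was 0.42 ± 1.32 (SE) and did not pass edgeR's test (adjusted p near 1). The 0 in the shallow control replicate 1 allows up to 87.4 nuclear CPM, which is below every other library labelled gut at this region. Without that library the log2 fold change was -0.15, and with the replicate number as a block it was 1.39 ± 1.36 (SE).

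The lower-end region of Atf3 was thinner. Control replicates had 0, 18 and 53 counts there, against 12, 44 and 1 for the switched ones, or 0, 182 and 464 nuclear CPM against 541, 317 and 14.0. Low libraries occurred in both groups, namely control replicate 1 and switched replicate 3. The means were 215 ± 234 and 291 ± 265 nuclear CPM (SD, n = 3 each). The log2 fold change was -0.28 ± 1.78 (SE) and did not pass the test. Its sign differs from that of the nuclear CPM means, and with library totals alone in place of TMM factors it was 0.43.

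Summed over both end regions, Atf3 labelled gut stood at 0, 1233 and 718 nuclear CPM in control and at 993, 980 and 935 in switched libraries. The 3 switched libraries lay close together in the sum (969 ± 30.4, SD, n = 3), while the control libraries spread widely around them (650 ± 619). At each region alone the switched libraries spread as well. They stood at 541, 317 and 14.0 nuclear CPM at the lower end and at 451, 663 and 921 at the upper end. The sum of switched replicate 1 rests on 22 counts. With the libraries taken as unpaired, the difference in mean had an exact two-sided permutation p of 0.6, and with 3 libraries a group this p cannot go below 0.1. With same-numbered libraries paired, the switched library was higher in 2 of 3 pairs (exact two-sided sign-flip permutation p = 0.75, smallest possible 0.25). The log2 fold change of the sum was 0.20 ± 1.15 (SE), and 1.01 ± 1.29 with the replicate number as a block. It was -0.38 without control replicate 1, -0.02 without switched replicate 2 and -0.20 without both shallow libraries.

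The Ets21C upper-end region labelled fat body was read in every library. Control replicates had 112, 27 and 80 counts there, against 98, 22 and 250 for the switched ones. In nuclear CPM this was 819, 208 and 486 against 428, 137 and 1275. Switched libraries held both the highest value (replicate 3) and the lowest (replicate 2), so the groups overlapped. The means were 504 ± 306 and 613 ± 591 nuclear CPM (SD, n = 3 each). The log2 fold change of 0.25 ± 1.08 (SE) equalled the median of all tested regions labelled fat body, which was also 0.25. It became -0.74 without switched replicate 3 and -0.09 without control replicate 2. With library totals alone in place of TMM factors it was 1.16, while the median of the same regions moved to 0.94.

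In the libraries labelled gut the mean CPM of the Ets21C upper-end region exceeded that of 88.3% of tested regions. CPM is not scaled to length, and at 314 bp the region was longer than 86.6% of them. Control replicates had 33, 81 and 53 counts there, against 13, 62 and 70 for the switched ones, or 962, 819 and 464 nuclear CPM against 587, 447 and 977. The groups spanned almost the same range. The means were 748 ± 256 and 670 ± 275 nuclear CPM (SD, n = 3 each), and the log2 fold change was -0.42 ± 1.04 (SE), which did not pass the test. The exact two-sided permutation p of the nuclear CPM was 0.8 unpaired, and 1 when same-numbered libraries were paired, with the switched library higher in 1 of 3 pairs. Without both shallow libraries the log2 fold change was -0.06 ± 0.65 (SE).

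Because this upper-end interval was deposited in both tables, the level of Ets21C can be set side by side across the 4 groups, per length of each table's own region. It was 3162 ± 3048 nuclear CPM per kb in switched and 2599 ± 1576 in control libraries labelled fat body, 2383 ± 816 in control and 2134 ± 875 in switched libraries labelled gut (SD, n = 3 each). In this order each group differed from its neighbour by less than the SD of either. The tables were made from separate sets of regions, so the order between tissues was not tested. For the upper-end regions, the difference in mean log2(nuclear CPM + 1), switched minus control, was -0.05 labelled fat body and -0.17 labelled gut. These differences were 0.12 apart, with an exact two-sided permutation p of 0.925 (400 relabellings within the tables, libraries unpaired). Since the genes were selected on the contrast labelled fat body, this too is given as a description.

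The Ets21C/Spp region had few reads, namely 6, 23 and 16 for the control against 21, 21 and 25 for the switched replicates labelled gut. In nuclear CPM these were 175, 232 and 140 against 947, 151 and 349. Switched replicate 2 lay within the control range and the shallow switched replicate 1 far above it. The exact 95% Clopper-Pearson interval of that library's value ran from 587 to 1448 nuclear CPM, again for counting error only. The log2 fold change was 0.86 ± 1.56 (SE), which did not pass the test, and 0.21 ± 1.22 without both shallow libraries. Whether these reads belong to Spp, Ets21C or nAChRbeta3 cannot be told apart here.

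Of the 4 member regions labelled gut, 0 passed edgeR's test and 0 passed DESeq2's, as did 0% of 1944 and 0% of 2896 regions. At an unadjusted edgeR p under 0.05 there were 31 regions in that table and 0 members. In 0 of the 4 did every switched library lie above every control library, against 5.04% of tested regions.

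**Figure D3:**
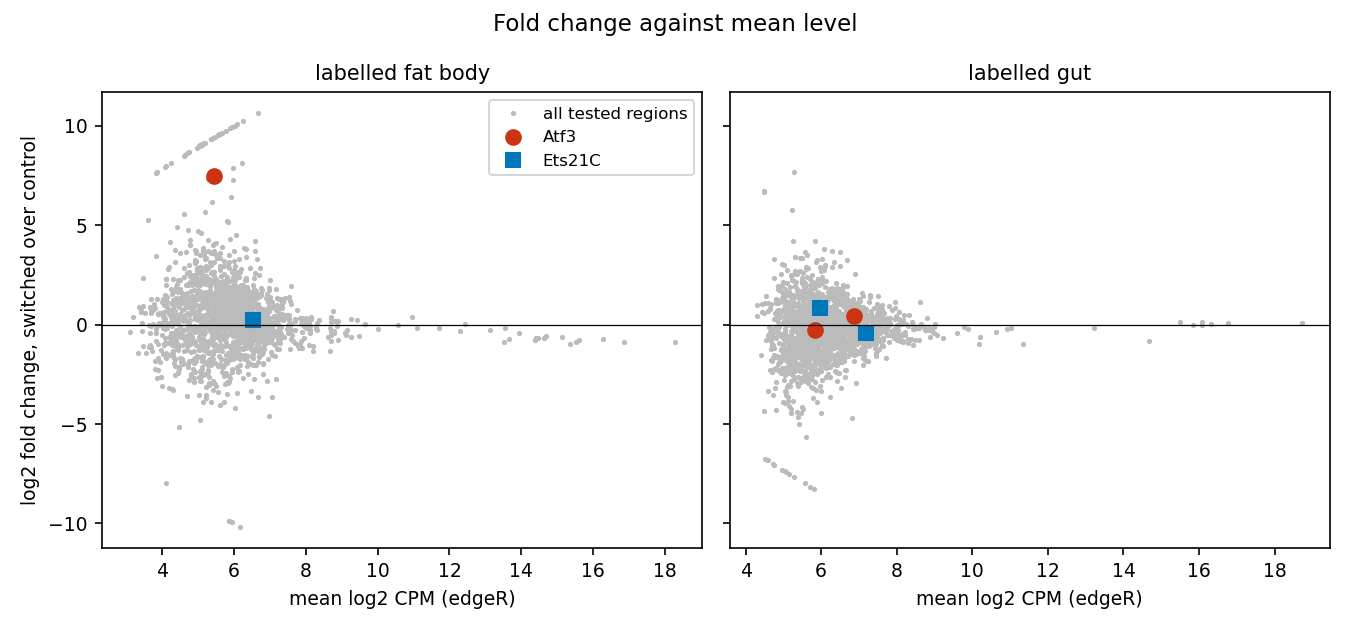
Log2 fold change of switched over control (edgeR) against mean log2 CPM for all tested regions (grey), with Atf3 regions as red circles and Ets21C regions as blue squares. The inner Atf3 region labelled fat body stands at 7.48, in the upper part of the plot, and the other 5 regions lie between -0.42 and 0.86; the slanted lines of points are regions at 0 in all libraries of a group.

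**Figure D4:**
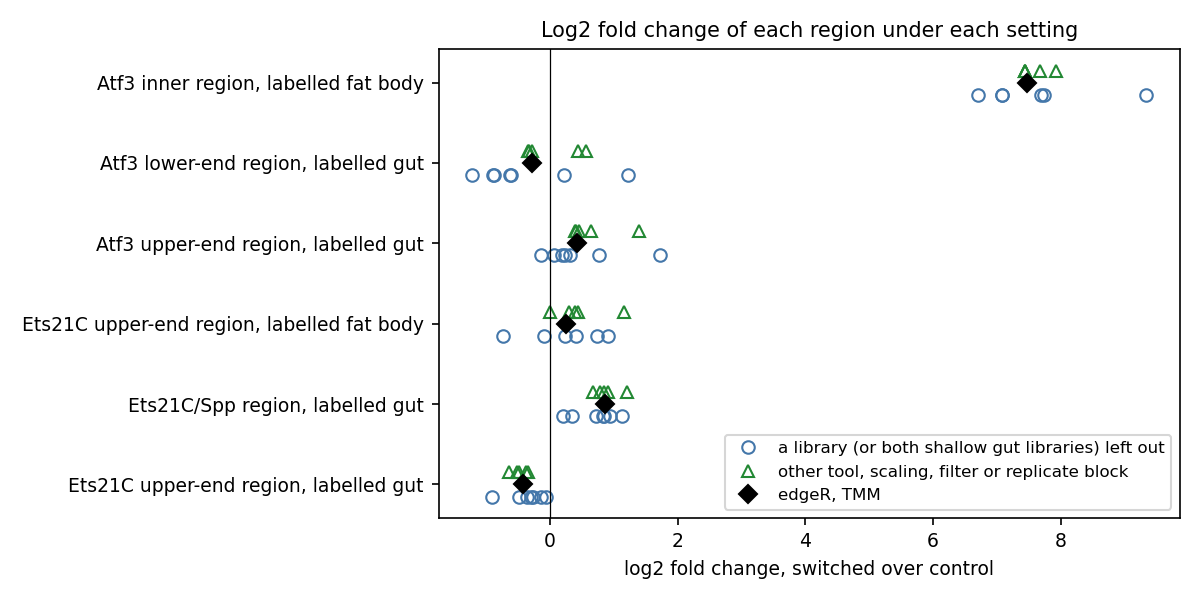
Log2 fold change of each region under edgeR with TMM factors (black diamonds), with libraries left out (blue circles) and under another tool, scaling, filter or the replicate block (green triangles). The inner Atf3 region stays between 6.71 and 9.34, whereas both Atf3 end regions and the Ets21C region labelled fat body have settings on either side of 0.

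The rule that picks regions by distance left several close to Atf3 just outside. The member nearest the bound was the lower-end region at 491 bp, and the nearest non-members lay beyond the upper end at 1275 bp and 1353 bp. The former (X:1276559-1276629, labelled fat body) had 81, 31 and 173 counts for control against 0, 0 and 199 for switched replicates. The latter (X:1276637-1276870, labelled gut) had 0, 133 and 85 for control against 31, 94 and 15 for switched replicates. With a bound of 5000 bp the count of regions was 9, and with overlap alone it was 4.

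Atf3 and Ets21C act with the JNK pathway, whose kinases activate the AP-1 pair Jra (Jun) and kay (Fos), and with other bZIP and ETS factors and JAK-STAT signalling. The genes of 5 lists were therefore read in the same fits, with tested regions summed per gene. No gene of any list passed edgeR's test in either table, where 0% of 828 genes labelled fat body and 0% of 1276 labelled gut passed. The lists share members, as kay stands in the JNK and bZIP lists and Mmp1 in the JNK and partner lists. All-gene medians of the log2 fold change were 0.64 labelled fat body and -0.21 labelled gut.

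JNK and AP-1 genes with a tested region numbered 3 of 20 labelled fat body and 4 of 20 labelled gut, with median log2 fold changes of 0.42 and -0.17. The Fos gene kay, read in both tables, had 0.42 ± 0.90 (SE) labelled fat body and 0.46 ± 0.83 labelled gut. The tumour necrosis factor receptor gene wgn had 0.66 ± 1.87 and raw, which restrains JNK signalling in the embryo, -1.69 ± 1.35 labelled fat body. Labelled gut, the cell death gene hid stood at 0.06 ± 0.76 and the kinase adaptor gene Tab2 at -0.41 ± 1.01.

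Of 19 other bZIP genes, 6 had a tested region labelled fat body (5 above 0 and 1 below, median 0.51) and 8 labelled gut (3 above and 5 below, median -0.47). The Nrf2 homologue cnc had a log2 fold change of 0.60 ± 0.87 labelled fat body and -0.65 ± 0.89 labelled gut. The CREB gene CrebB had 1.14 ± 0.91 and -1.68 ± 1.86, and the clock factor genes Pdp1 and vri had 0.24 ± 0.91 and 0.64 ± 0.85, and -0.88 ± 1.18 and -0.51 ± 0.81. Xbp1, the unfolded protein response factor gene, had 2.92 ± 1.97 labelled fat body, with 0, 9 and 0 counts for control against 10, 34 and 54 for switched replicates. Labelled gut, the Maf factor gene tj had -2.63 ± 1.56, with 19, 51 and 48 counts for control against 0, 10 and 13 for switched replicates. The ATF4 homologue crc stood at -0.43 ± 0.99 and REPTOR, which acts below TOR signalling, at 0.48 ± 1.63. Differences between the tables were not tested for these genes.

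ETS genes other than Ets21C with a tested region were 2 of 8 labelled fat body and 3 of 8 labelled gut. Eip74EF, an ecdysone-induced ETS gene, had 0.66 ± 0.63 (SE) labelled fat body and 0.90 ± 0.72 labelled gut on the log2 scale. The ETS repressor gene aop had 1.59 ± 2.25 and -0.07 ± 1.33, and Ets98B had -0.60 ± 1.48 labelled gut. Of the JAK-STAT genes, 3 of 12 had a tested region labelled fat body (2 above 0 and 1 below, median 1.23). Labelled gut, 5 had one (2 above and 3 below, median -0.02). The inhibitor gene Socs36E had 1.23 ± 1.14 labelled fat body. The gene below 0 in that table was upd1, at -2.03 ± 1.35. It had 45, 46 and 145 counts for control against 28, 28 and 9 for switched replicates. Labelled gut, Stat92E, the STAT factor gene itself, had 0.68 ± 1.35, the phosphatase gene Ptp61F -0.82 ± 1.41 and the receptor gene et -0.02 ± 1.71. Su(var)2-10, which encodes the PIAS inhibitor, had 1.65 ± 1.45 labelled fat body and -0.31 ± 1.56 labelled gut. The repressor gene ken stood apart at 5.76 ± 2.06 labelled gut, with 0, 1 and 0 counts for control against 6, 75 and 13 for switched replicates, and did not pass the test.

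Genes described as partners or targets of Atf3 or Ets21C in fly stress and tumour models had a tested region at 3 of 13 labelled fat body (2 above 0, 1 below, median 0.29) and at 4 labelled gut (1 above, 3 below, median -0.48). The nuclear receptor gene ftz-f1, read in both tables, stood at 0.29 ± 0.88 (SE) and -0.21 ± 1.49. The polarity gene scrib had 0.39 ± 1.01 labelled fat body. Labelled gut, the lipase gene bmm had 1.86 ± 1.71, the fatty acid synthase gene FASN1 -0.75 ± 1.13 and the matrix protease gene Mmp1 -2.06 ± 1.91.

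**Figure D5:**
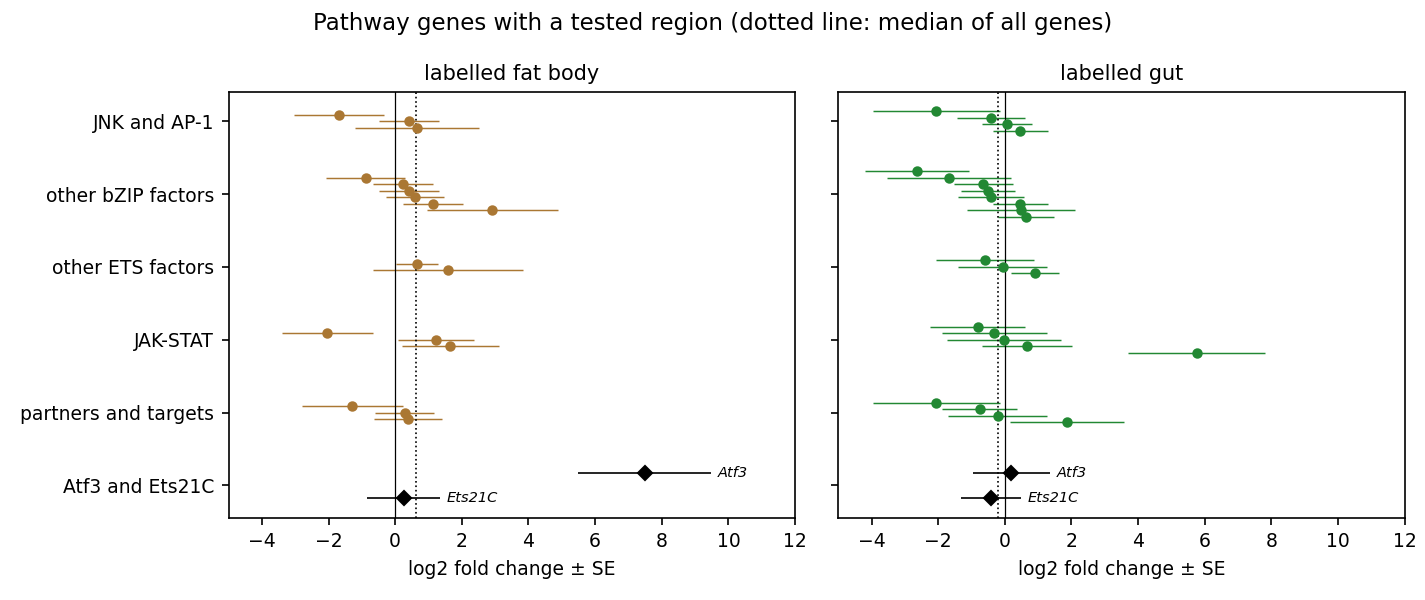
Log2 fold change ± SE (edgeR, tested regions summed per gene) for genes of 5 lists and for Atf3 and Ets21C (black diamonds), labelled fat body in brown and labelled gut in green. The dotted line is the median of all genes, 0.64 labelled fat body and -0.21 labelled gut; Atf3 labelled fat body stands at 7.48 and no gene shown passed the test.

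The genes whose summed level followed Atf3 or Ets21C most closely were named by Pearson's r of log2(CPM + 1) over the 6 libraries of a table, which share depth and preparation. For Atf3 labelled fat body these were tok (r = 0.991), CG15465 (0.989) and Erk7 (0.989), and 38 of 827 genes reached 0.9. The Atf3 profile here is the difference on which the gene was selected, so this ranking restates the selection and supports nothing. All 3 genes were read almost only in switched libraries and passed the filter on low counts only through them. tok, a gene for a tolloid-like protease, had 0, 0 and 2 counts for control against 197, 137 and 72 for switched replicates. Erk7, a gene for an atypical MAP kinase, was at 0 for every control library against 73, 21 and 13 for switched replicates. For Ets21C labelled fat body they were IP3K2 (0.981), Cyp6v1 (0.978) and laza (0.963), which were low, like Ets21C, in control replicate 2 and switched replicate 2.

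For Atf3 labelled gut the closest genes were smash (0.997), Aldh-III (0.996) and cact (0.995), and 81 of 1275 genes reached 0.9. Each of them was at 0 in the shallow control replicate 1, as Atf3 was. For Ets21C labelled gut they were trio (0.964), CG7341 (0.961) and CG11658 (0.961), each with 0 counts in the shallow switched replicate 1, in which Ets21C had 13 counts. In switched replicate 2, which was not shallow, they had 0, 0 and 4 counts, and Ets21C had 62.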

How the data were processed

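ATAC-seq read counts per region were deposited as raw counts, in 1 table per tissue; the authors' accompanying sheet calls them read counts. The submitters' processing notes name FastQC, Trimmomatic, MACS2, featureCounts and DESeq2, without versions or roles. The sources used here do not give the aligner, the build, the treatment of duplicates or any Tn5 shift; retained duplicates would widen the spread between libraries. Coordinates were read against gene spans of Release 6, on an earlier match of these regions to its gene ends.

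Regions were assigned to a protein-coding gene they overlap, or to the nearest within 1000 bp. Each table was fitted with edgeR 4.0.16 in R 4.3.3 (filterByExpr, minimum count 10 and total 15, TMM factors, quasi-likelihood F test, Benjamini-Hochberg adjustment, threshold 0.05), which tested 1674 and 1944 regions. SE was the log2 fold change over the square root of F. DESeq2 1.42.0, other scalings, no filter, a replicate block and leaving out libraries were alternatives. The code was tested on simulated data.

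Members and lists were chosen with earlier results of these data known. All regions of both genes were named. Of each list, genes tested in both tables and up to 4 others with the highest mean CPM were named. The 3 genes most alike were named as well. ken and upd1 were named after their values were seen. Deviations of same-numbered libraries labelled gut correlated at 0.259, 0.191 and 0.108, each over 0.1. By this bound the numbers were taken to pair samples. The 0.259 is that of the shallow libraries numbered 1, and the part of depth in it was not tested. The bound does not single out these pairs, so the pairing is uncertain. Control replicate 3 with switched replicate 2 reached 0.109, over the bound and above the 0.108 of the libraries numbered 3. Control replicate 2 with switched replicate 3 reached 0.0972. The pairing rests on the counts and not on any label. The main fits took libraries as unpaired. The exact paired test was added after the data were seen. Labelled fat body the correlations were -0.060 to 0.004. No pair of libraries agreed within sampling noise.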

Additional observations from a re-analysis of the deposited data

How the results depend on the processing

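Of 174 alternative values, 151 kept direction and side of the threshold, 19 changed sign and 4 passed it. Labelled fat body, 0 regions were called by edgeR, 19 without a filter on low counts and 79 by DESeq2; labelled gut, 0 throughout. DESeq2 alone called Atf3 labelled fat body, at a log2 fold change of 7.68 for the region and 7.73 for the gene sum. The fitted values that changed sign were smaller than their SE. With library totals alone and with the replicate block, the Atf3 lower-end region stood at 0.43 and 0.56; the block changed no call. Without both shallow gut libraries, an alternative added after the data were seen, the Atf3 sum labelled gut was -0.20 and the log2 ratios of nuclear shares were -0.027 for Atf3 and 0.15 for Ets21C. With each library left out, log2 fold changes ran from -0.89 to 1.22 (Atf3 lower end), -0.15 to 1.73 (Atf3 upper end), -0.38 to 0.69 (Atf3 sum labelled gut) and -0.74 to 0.91 (Ets21C labelled fat body, region and sum). The log2 ratios of nuclear shares ran from -0.0095 to 1.43 (Atf3 labelled gut), -0.84 to 0.82 (Ets21C labelled fat body) and -0.53 to 0.063 (Ets21C labelled gut). The cause was not tested. Without control replicate 3 the Atf3 share labelled fat body has no ratio, as the other control libraries were at 0. Shallow libraries numbered 1 limit what can be read labelled gut.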
